A study of Mus musculus with 12 samples.

Results

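The genes of histone acetylation and chromatin regulation were examined as a group of 57 members, out of 21938 protein-coding genes, in ATAC-seq peak lists of transformed mouse embryonic fibroblasts (MEFs). The members are a named set of enzymes, readers and complex subunits of chromatin, and no measured value enters the rule. Every peak that overlapped the body of a member, or the 20000 bp on either side of it, was taken. The peaks of the 7 lists were merged into 147985 loci, and 628 of these lay in the members' windows. Of the 628 loci, 81 lay within 1000 bp of a transcription start site (TSS) of the member itself and are called its promoter loci. A further 72 lay at the promoters of neighbouring genes, and 475 lay away from the TSS of any protein-coding gene and are called distal loci. A distal locus in the window of a member was not shown to act on that member, and 2 distal loci lay in the windows of both Chd3 and Kdm6b.

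All cells were MEFs from E13.5 embryos, labelled as OG2 MEFs, although the growth protocol of the same samples names a wildtype ICR background. They were transformed with pairs of genes. Hdac7SA.Mef2d cells carried a form of the histone deacetylase Hdac7 together with the transcription factor Mef2d. Hras.E1A cells carried the Hras oncogene, labelled Ras, with adenoviral E1A, and Hras.Myc cells carried the same oncogene with Myc. Each of these 3 lines was measured untreated. The Hras lines were also measured after 2 days of PD (PD0325901), an inhibitor of the kinase MEK, and after 2 days of TSA (trichostatin A), which inhibits the zinc-dependent histone deacetylases. Treated Hdac7SA.Mef2d cells and wildtype MEFs were not analysed here. The study used these lines to ask what keeps some transformed MEFs from being reprogrammed to pluripotency. The sources used here do not say whether a line is 1 clone.

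The files held 1 peak list per group, from 2 libraries each, except the lists with TSA, which rested on 1 library each. The lists held from 56774 peaks in Hras.Myc with PD to 119251 in Hdac7SA.Mef2d, and since no file holds read counts, library depth is unknown. A locus was open in a list if the list had a peak there, closed with a drug if it had a peak untreated but none after treatment, and opened if the reverse held. Reads may be present where no peak was listed. Because the replicates of a group cannot be separated in its list, no test between groups could be made. Each share of loci has an exact 95% interval (Clopper-Pearson, binomial). It covers counting error alone, and takes loci side by side in the genome to be independent. Of the 9 fibroblast marker genes, between 6 and 9 had an open promoter in each list. Thy1 lacked one in the 3 Hras.E1A lists and in Hras.Myc with TSA. Col1a2 lacked one in untreated Hras.E1A, in Hras.E1A with TSA and in the 3 Hras.Myc lists, and Prrx1 in untreated Hras.E1A. Of 5 epithelial marker genes, 4 or 5 had an open promoter. Of the blood genes, Cd14 and Csf1r had an open promoter in all 7 lists and Ptprc and Spi1 in none, and of the endothelial genes Kdr had one in all 7, Pecam1 in 4, and Cdh5 and Tie1 in none. A coding locus of Mef2d was open in Hdac7SA.Mef2d alone and a coding locus of Myc in the untreated and PD lists of Hras.Myc alone, while Hras had no coding locus and those of Hdac7 did not set any line apart.

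Acetylation of histone tails is written by histone acetyltransferases such as Ep300 and Crebbp, read by bromodomain proteins such as Brd2 and Brd3, and removed by the histone deacetylases (HDACs) and the sirtuins. Acetylated nucleosomes mark active promoters and enhancers. The HDACs mostly work inside larger assemblies, among them the corepressor complexes built on Ncor1, Sin3a and Rcor1 and the nucleosome remodelling complex NuRD. Other chromatin regulators move nucleosomes (BAF), methylate or demethylate histones (PRC2, the Kmt and Kdm enzymes) or set and erase methylation of DNA (the Dnmt and Tet enzymes). AP-1, the family of Fos and Jun proteins, is a well-known nuclear target of MEK signalling and binds the letters TGANTCA.

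The sequences of 5 distal loci that closed with PD in both Hras lines are shown, since the AP-1 letters were more frequent in such loci than in those kept. They are the 5 with the highest score in untreated Hras.E1A, with 1 locus per gene, among 34 of the 35 such loci with an AP-1 motif. The sequence of the remaining locus, which is near Hdac3 and scored 10.9, is not printed here. The capitals mark TGANTCA on either strand. All sequences are 200 bases from the centre of the locus, on the plus strand of GRCm38 (the assembly of mm10), from the RefSeq genome.
Tet3 upstream, chr6:83478836-83479035: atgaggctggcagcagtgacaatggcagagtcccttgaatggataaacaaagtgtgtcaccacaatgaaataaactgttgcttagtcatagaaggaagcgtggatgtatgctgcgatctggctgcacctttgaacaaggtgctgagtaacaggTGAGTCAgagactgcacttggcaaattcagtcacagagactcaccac
Kdm1a intron, chr4:136570117-136570316: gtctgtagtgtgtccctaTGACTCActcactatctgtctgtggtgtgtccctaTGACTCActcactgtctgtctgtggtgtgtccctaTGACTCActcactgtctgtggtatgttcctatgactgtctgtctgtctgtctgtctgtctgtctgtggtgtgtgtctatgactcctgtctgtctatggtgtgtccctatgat
Smarcc1 intron, chr9:110228749-110228948: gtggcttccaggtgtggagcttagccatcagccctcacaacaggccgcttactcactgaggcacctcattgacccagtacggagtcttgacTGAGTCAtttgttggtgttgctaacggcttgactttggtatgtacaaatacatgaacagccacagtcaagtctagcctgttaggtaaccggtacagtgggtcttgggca
Hdac11 upstream, chr6:91147516-91147715: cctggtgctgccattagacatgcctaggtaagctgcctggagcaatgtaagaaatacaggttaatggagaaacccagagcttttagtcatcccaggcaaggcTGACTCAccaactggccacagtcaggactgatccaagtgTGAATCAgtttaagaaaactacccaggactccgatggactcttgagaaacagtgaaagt
Sirt1 upstream, chr10:63400502-63400701: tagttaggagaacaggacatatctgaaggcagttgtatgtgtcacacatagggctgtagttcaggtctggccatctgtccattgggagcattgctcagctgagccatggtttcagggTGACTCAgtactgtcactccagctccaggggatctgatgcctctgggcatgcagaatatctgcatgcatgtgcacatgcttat
The Tet3 locus lay 19852 bp upstream of the start of Tet3, an enzyme that oxidises methylated cytosine, and was open in Hdac7SA.Mef2d, both untreated Hras lines and both TSA lists, and in neither PD list. The other loci printed here had the same pattern over the 7 lists. The Kdm1a locus holds 3 copies of the motif in tandem, in sequence of which 30% was masked as repeat in the genome file, and lay in an intron of Kdm1a, the demethylase of the CoREST complex. The Sirt1 locus, of which 33.5% was masked, lay upstream of Sirt1 and in an intron of its neighbour Dnajc12, and the other 3 held no masked bases. Among promoter loci, the 2 that closed with PD in both Hras lines are shown, again with the AP-1 motif in capitals.
Brd3 internal promoter, chr2:27464306-27464505: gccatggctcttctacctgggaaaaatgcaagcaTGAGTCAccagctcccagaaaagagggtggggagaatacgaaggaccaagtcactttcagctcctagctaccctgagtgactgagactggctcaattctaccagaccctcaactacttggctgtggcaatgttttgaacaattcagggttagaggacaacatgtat
Tet3 internal promoter, chr6:83442666-83442865: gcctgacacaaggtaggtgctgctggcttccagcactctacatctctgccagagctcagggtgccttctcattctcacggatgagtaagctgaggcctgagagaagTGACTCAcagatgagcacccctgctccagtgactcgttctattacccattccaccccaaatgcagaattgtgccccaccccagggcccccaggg
Both lay in introns, beside the start of an annotated shorter transcript of Brd3 (90 bp away) and of Tet3 (891 bp away).

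Most of these genes had a promoter locus that was open in every line and under every treatment. A promoter locus open in all 7 lists was found for 54 of the 57 members (94.7%, interval 85.4 to 98.9%), compared with 57.4% of all protein-coding genes. All 7 zinc-dependent HDACs (Hdac1, Hdac2, Hdac3, Hdac6, Hdac8, Hdac10 and Hdac11), both sirtuins, all 9 acetyltransferases, both bromodomain readers, all 3 nuclear receptor coactivators, all 5 corepressors, all 7 BAF genes and all 4 PRC2 genes were among them. Of 79 other genes of the same pathways that are not members, such a locus was found for 74 (93.7%), so that the members' share was also that of chromatin genes at large. When every list was shortened to the size of the shortest, the count of members was 26, and the share of all genes was 31.0%. Without the 25% of peaks with the lowest scores it was 38 members, beside 43.7% of all genes.

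The members without a promoter locus were Chd3, a helicase of NuRD, Kdm6b, a demethylase of lysine 27 of histone H3, and Tet1, which oxidises methylated cytosine. None of the 7 lists had a peak within 1000 bp of any of their annotated starts. For Chd3, the nearest locus lay 2600 bp away in an intron and was open in all 7 lists with scores from 6.82 to 9.70. The nearest locus to a Kdm6b start lay 1908 bp away and was open in 2 lists only, Hras.E1A with TSA at a score of 1.30 and Hras.Myc with PD at 1.50, but loci at 3702 and 4029 bp were open in every list. At Tet1 the nearest locus was 5884 bp from a start and lacked a peak in both PD lists.

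Of the 81 promoter loci, 66 were open in all 7 lists. The remaining 15 belonged to 13 members, each of which had another promoter locus open throughout (54 of 54 members with any promoter locus). PD in Hras.E1A closed 4 of 75 promoter loci (5.33%, beside 6.98% over all protein-coding genes), those of Brd3, Ezh2, Tet3 and Dnmt1, and 3 of the 74 open with PD were opened (4.05%, beside 3.52%), those of Crebbp, Kdm2b and Kmt2a. PD in Hras.Myc closed 2 of 74 (2.70%, beside 7.16%), Brd3 and Tet3, and opened 2 of 74 (2.70%, beside 4.49%), Sirt1 and Brd2. TSA in Hras.E1A closed 2 of 75 (2.67%, beside 4.26%), Brd3 and Dnmt3a, and opened 3 of 76 (3.95%, beside 4.02%), Kat6a, Arid1b and Kdm2b. TSA in Hras.Myc closed 4 of 74 (5.41%, beside 7.08%), at Brd3, Sin3a, Arid1b and Kdm2b, and opened 2 of 72 (2.78%, beside 4.90%), at Brd2 and Arid1b. With 2 to 4 loci in each count, the intervals of all 8 shares contained the share over all genes.

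Most of these 15 loci were weak. The score of a peak, whose scale is not stated, was used only to rank it within its list, and 11 of the loci stayed below percentile 25 in every list in which they were open. The first exon of Sirt1, an NAD-dependent deacetylase, had a peak in Hras.Myc with PD alone, at percentile 0.853, while another locus 916 bp from the start was open in every list. Likewise the locus just inside Crebbp reached at most percentile 22.1 (Hras.Myc with TSA), beside a neighbouring promoter locus of Crebbp whose scores ran from 6.38 to 10.8 over the 7 lists. The weak loci of Kat6a, Brd2, Sin3a, Kdm2b, Kmt2a, Tet3 and Dnmt1 are drawn with the others in the plot of variable promoter loci.

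**Figure D1:**
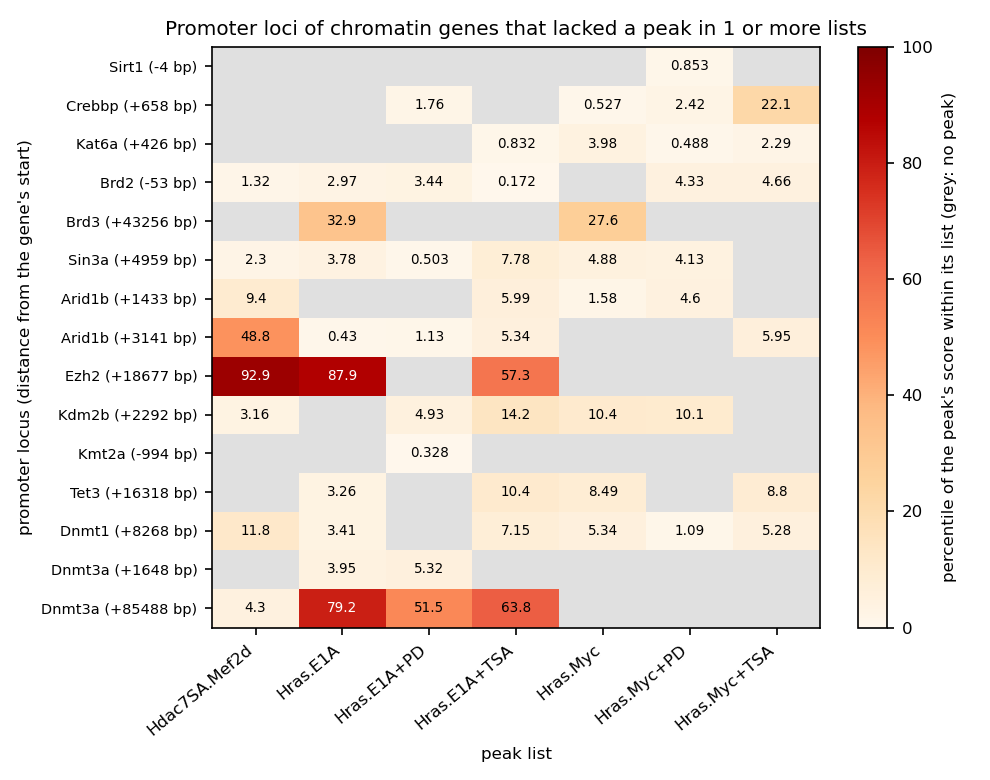
Rows are the 15 promoter loci of members that lacked a peak in 1 or more lists, with their distance from the start of the gene in bp, and columns are the 7 lists. Colour and number give the percentile of the peak's score within its list and grey marks no peak. The locus of Ezh2 was near the top of the Hdac7SA.Mef2d and Hras.E1A lists and without a peak in the Hras.Myc lists, and most other rows stayed at low percentiles.

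The exceptions were internal promoter loci of Ezh2, Dnmt3a, Brd3 and Arid1b. Ezh2 is the methyltransferase of PRC2. Its locus at chr6:47576464-47576863 (mm10), 797 bp from the start of an internal transcript and overlapping a coding exon, stood at percentile 92.9 of the Hdac7SA.Mef2d list and 87.9 of the Hras.E1A list. It stood at 57.3 with TSA in Hras.E1A and lacked a peak under PD in Hras.E1A and in all 3 Hras.Myc lists. The main promoter locus of Ezh2 was open in all 7.

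Dnmt3a, a DNA methyltransferase that sets new methylation, had a locus at chr12:3891295-3891694, in an intron 34 bp from an internal start. It was strong in the Hras.E1A lists, at percentile 79.2 untreated, 51.5 with PD and 63.8 with TSA, weak in Hdac7SA.Mef2d at percentile 4.30, and without a peak in any Hras.Myc list. Both internal loci were open in untreated Hras.E1A and without a peak in all 3 Hras.Myc lists, as were 3 of 75 promoter loci in all (4.00%), beside 3.84% over all genes.

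The internal Brd3 locus at chr2:27464206-27464605, printed above, had a peak in the untreated Hras lines only, at percentile 32.9 in Hras.E1A and 27.6 in Hras.Myc. It was therefore closed with PD and closed with TSA in both lines. Arid1b encodes a BAF subunit that binds DNA. Its locus at chr17:4997273-4997672 was strongest in Hdac7SA.Mef2d (percentile 48.8) and had no peak in untreated Hras.Myc or in Hras.Myc with PD.

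The distal loci varied far more than the promoters. Of the 475 distal loci, 104 (21.9%, interval 18.3 to 25.9%) were open in all 7 lists, beside 15.5% over all genes and 20.5% at the 79 other chromatin genes. A further 87 (18.3%, 14.9 to 22.1%) were open in 1 list, beside 29.1% and 22.9%. A distal locus open in all 7 lists was found at 49 of the 57 members (86.0%), beside 50.7% of all genes and 68.4% of the other chromatin genes. Most distal loci lay in introns (275), with 71 upstream and 100 downstream of the gene, 23 in coding exons and 8 in UTR exons, a locus in the windows of 2 members being counted for each. The windows of the members held a median of 7 distal loci per gene against 4 over all genes, beside a median gene length of 52184 bp against 17425 bp. The count of members with a distal locus open in all 7 lists was not adjusted for this. The number of distal loci ran from 1 at Mta2, a subunit of NuRD, to 45 at Arid1b, as shown in the heat map of open distal loci.

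**Figure D2:**
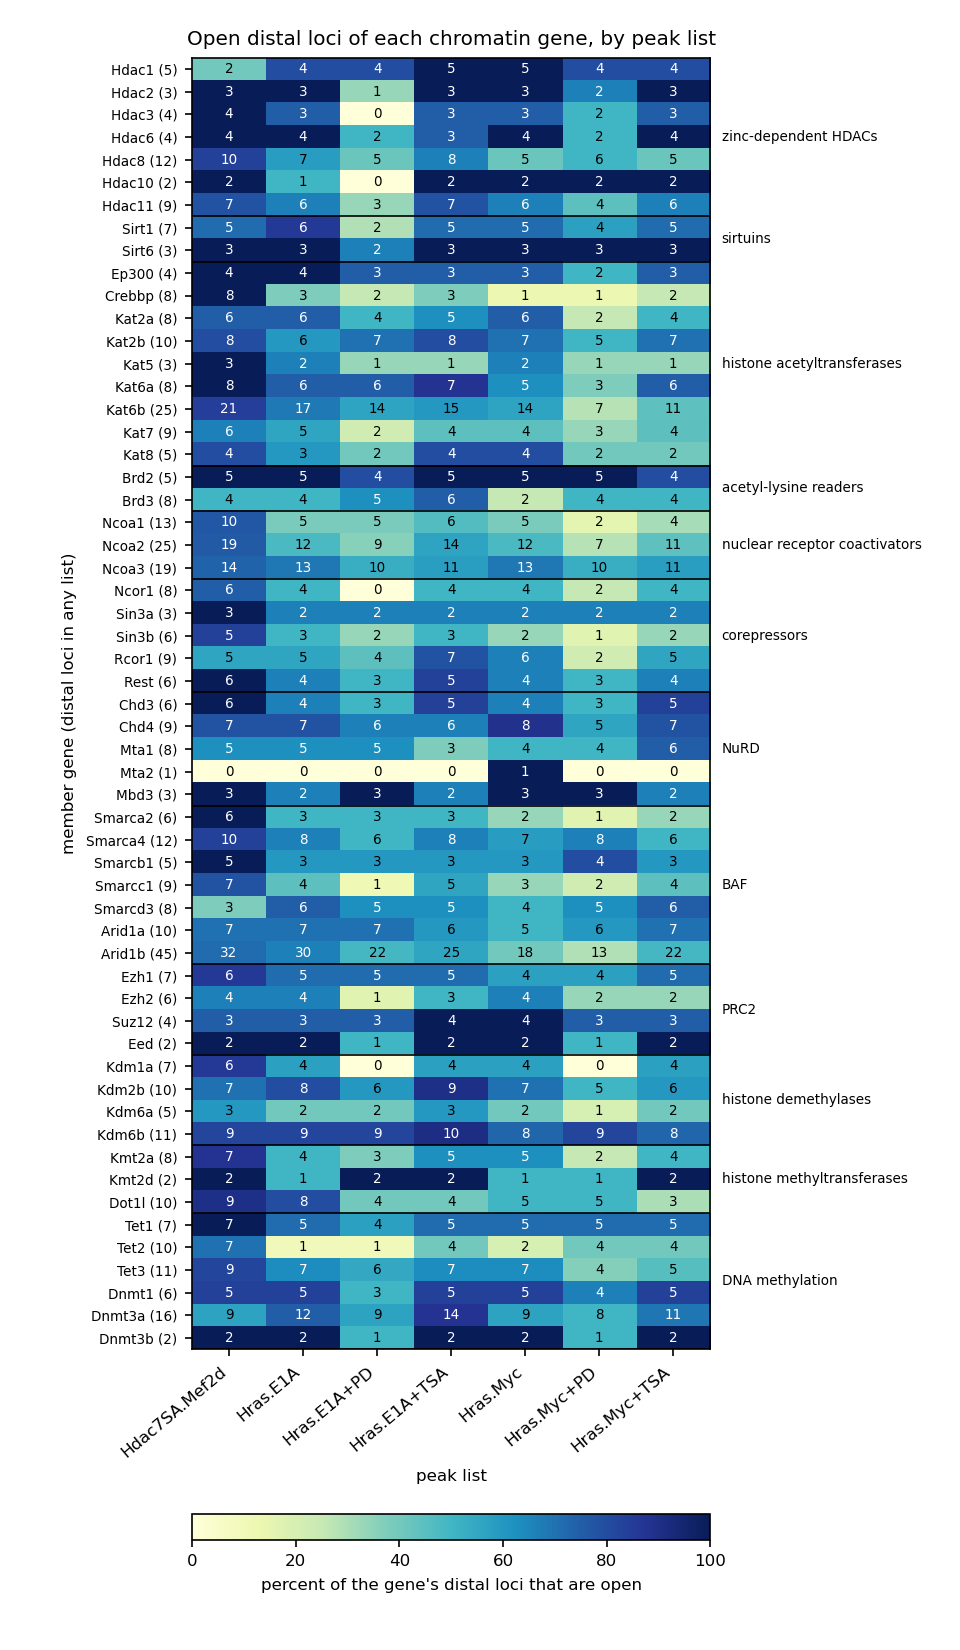
Rows are the 57 members grouped by role, with the number of their distal loci in parentheses, and columns are the 7 peak lists. Each cell gives the number of distal loci open in the list and is coloured by the percent of the gene's distal loci that this is. Kdm1a has 0 in both PD columns, and Hdac3, Hdac10 and Ncor1 have 0 in Hras.E1A with PD.

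With PD, more distal loci closed than opened at most of the members. In Hras.E1A, 113 of 306 distal loci closed (36.9%, interval 31.5 to 42.6%), which was below the 44.6% over all genes, and 34 of the 227 loci open with PD were opened (15.0%, 10.6 to 20.3%, beside 19.2%). In Hras.Myc, 115 of 274 closed (42.0%, 36.1 to 48.1%, beside 46.1%) and 46 of 205 were opened (22.4%, 16.9 to 28.8%, beside 29.7%). More distal loci closed than opened at 39 members in Hras.E1A (68.4%, beside 47.1% of all genes) and at 38 in Hras.Myc (66.7%, beside 41.9%), and more opened than closed at 4 (7.02%, beside 7.61%) and 8 (14.0%, beside 11.9%). The number of open distal loci was lower with PD in both lines at 30 members (52.6%, beside 31.3%). These counts go with the larger number of distal loci per member, a median of 7 against 4. Closing thus went with PD at these genes as it did over all genes, and at no higher a share.

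The list of Hras.E1A with PD held 59823 peaks against 81201 untreated, and that of Hras.Myc 56774 against 67738, and depth is unknown. With all lists shortened to the same number of peaks, 32.0% and 41.5% of the members' distal loci closed with PD in Hras.E1A and Hras.Myc. The opened shares then rose to 44.5% and 41.5%, beside 39.2% and 40.3% over all genes, with 55 closed and 94 opened in Hras.E1A and 85 and 85 in Hras.Myc. Lists of equal length lose about as many peaks as they gain over the whole series. This setting therefore cannot show whether closing exceeded opening with PD.

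Among the 248 distal loci open in both untreated Hras lines, 65 closed with PD in both (26.2%, interval 20.8 to 32.1%), compared with 29.8% over all genes. A further 22 closed in Hras.E1A alone and 29 in Hras.Myc alone, and 132 kept a peak in both. At least 1 locus closed in both lines was found at 36 of the members (63.2%, beside 36.3% of all genes and 49.4% of the other chromatin genes), the most at Arid1b (6), Kat6b, Ncoa2 and Kdm1a (4 each) and Sirt1, Ncoa3 and Ncor1 (3 each). This count of genes was not adjusted for the members' larger number of distal loci, a median of 7 against 4 over all genes.

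**Figure D3:**
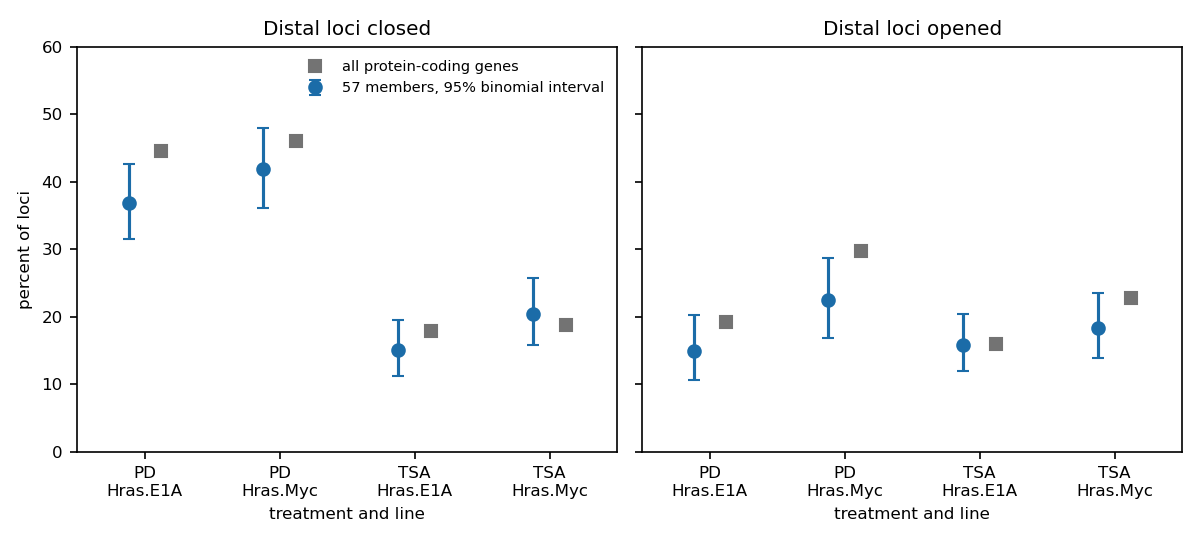
The left panel gives the percent of untreated open distal loci that closed, and the right panel the percent of treated open distal loci that were opened, for PD and TSA in each Hras line. Circles with bars are the 57 members with exact 95% binomial intervals, and squares are all protein-coding genes. With PD the members' closed shares were 36.9% and 42.0%, beside 44.6% and 46.1%, and with TSA 15.0% and 20.4%.

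With TSA the members' distal loci closed and opened in nearly equal numbers. In Hras.E1A, 46 of 306 closed (15.0%, interval 11.2 to 19.5%, beside 17.9% over all genes) and 49 of 309 were opened (15.9%, 12.0 to 20.4%, beside 15.9%). In Hras.Myc, 56 of 274 closed (20.4%, 15.8 to 25.7%, beside 18.8%) and 49 of 267 were opened (18.4%, 13.9 to 23.5%, beside 22.9%). In Hras.E1A, 15 members had more closed than opened (26.3%, beside 23.1% of all genes) and 22 more opened than closed (38.6%, beside 19.0%). In Hras.Myc it was 20 (35.1%, beside 19.2%) and 13 (22.8%, beside 25.9%). At the 79 other chromatin genes these shares were 25.3% and 20.3% in Hras.E1A, and 19.0% and 29.1% in Hras.Myc. Such counts per gene were not adjusted for the members' larger number of distal loci, a median of 7 against 4 over all genes. The TSA lists rest on 1 library each. PD and TSA were compared with the same untreated lists, so the shares of the drugs are given side by side only. Without the 25% of peaks with the lowest scores, the share closed with TSA in Hras.E1A was 24.1%, and with lists of equal size the share opened was 25.0%.

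The closed loci were weaker peaks in the untreated lists than those kept. The median score percentile of the members' distal loci was 29.0 for those closed with PD in Hras.E1A and 48.1 for those kept, and 35.8 and 46.0 in Hras.Myc. With TSA the corresponding medians were 24.9 and 42.5 in Hras.E1A and 19.7 and 50.6 in Hras.Myc. Over all genes the same order held, for example 41.0 and 52.8 with PD in Hras.E1A. A closed call at a weak peak can therefore rest on a small difference in signal, which these files cannot show.

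The zinc-dependent HDACs are the target class of TSA, and few of their own distal loci closed with it. Of 28 distal loci open untreated, 1 closed with TSA in Hras.E1A (3.57%, interval 0.0904 to 18.3%) and 3 of 28 in Hras.Myc (10.7%, 2.27 to 28.2%). With PD, 14 of 28 closed in Hras.E1A (50.0%, 30.6 to 69.4%) and 9 of 28 in Hras.Myc (32.1%, 15.9 to 52.4%). Each of these intervals contains the corresponding share over all genes. Hdac1, a catalytic subunit of the Sin3, NuRD and CoREST complexes, had 2 open distal loci in Hdac7SA.Mef2d and 4 or 5 in each Hras list. Hdac2, its close paralog, had 3 in each untreated list, 1 in Hras.E1A with PD, 2 in Hras.Myc with PD and 3 with TSA in both lines.

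Hdac3, the enzyme of the Ncor complexes, had 4 open distal loci in Hdac7SA.Mef2d, 3 in each untreated Hras line, 3 with TSA in each and 2 in Hras.Myc with PD, but 0 in Hras.E1A with PD. The 3 loci lay downstream of the gene, near the neighbouring gene Diaph1, and each held the AP-1 motif. Their scores in untreated Hras.E1A were 10.9, 3.41 and 7.82, and 1 of them, at 10.9, was also closed in Hras.Myc with PD. Hdac10, a polyamine deacetylase, had 1 open distal locus in Hras.E1A, 0 with PD and 2 in every other list. Hdac6, a mostly cytoplasmic deacetylase of tubulin, had 4 in each untreated line and 2 with PD in both Hras lines.

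Hdac8, a deacetylase of cohesin, had 10 open distal loci in untreated Hdac7SA.Mef2d, and of the untreated Hras lines Hras.E1A had 7 and Hras.Myc 5. With PD there were 5 and 6, and with TSA 8 and 5. In Hras.Myc, PD closed 2 and opened 3 of its loci, the strongest of them an intronic locus with a score of 14.2 in Hras.Myc with PD and no peak in any other list. Hdac11, the sole class IV enzyme, went from 6 to 3 open distal loci with PD in Hras.E1A and from 6 to 4 in Hras.Myc, and had 7 and 6 with TSA. Its printed locus, 9049 bp upstream of the start, held a pair of AP-1 motifs and scored 10.4 in Hras.E1A, 8.81 in Hras.Myc, and 8.33 and 11.9 with TSA in these lines.

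Of the sirtuins, Sirt1 went from 6 to 2 open distal loci with PD in Hras.E1A, and from 5 to 4 in the Hras.Myc line. Sirt6, a deacetylase at chromatin, had 3 in every list but Hras.E1A with PD, which had 2. Among the erasers the lower numbers in Hras.E1A with PD were thus at Hdac2, Hdac3, Hdac6, Hdac8, Hdac10, Hdac11, Sirt1 and Sirt6, with Hdac1 at 4 in both lists. In this comparison the number was lower at 68.4% of the members and at 47.1% of all genes. The list with PD held 59823 peaks against 81201 untreated.

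The histone acetyltransferases differed between the lines in the share closed with PD, at 16 of 52 distal loci in Hras.E1A (30.8%, interval 18.7 to 45.1%) and 27 of 46 in Hras.Myc (58.7%, 43.2 to 73.0%). Over all genes the shares were 44.6% and 46.1%, the intervals of the lines overlapped, and the difference between the lines at these 9 genes was not tested. Kat6b, the acetyltransferase of the MORF complex, had 25 distal loci, and the number open went from 17 to 14 with PD in Hras.E1A and from 14 to 7 in the Hras.Myc line. It lost 8 and gained 1 in Hras.Myc with PD, and 5 and 2 in Hras.E1A. An intronic locus of Kat6b scored 13.0 in Hdac7SA.Mef2d, 11.1 in Hras.E1A and 9.98 with PD, and had no peak with TSA or in any Hras.Myc list. Kat2a, of the SAGA complex, had 6 open distal loci in each untreated Hras line, 4 and 2 with PD, and 5 and 4 with TSA.

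Crebbp, a close relative of Ep300, was open at more distal loci in Hdac7SA.Mef2d than in the Hras lines. All 8 of its distal loci were open in Hdac7SA.Mef2d, 3 of them also in untreated Hras.E1A but just 1 in untreated Hras.Myc, and 5 of the 8 were open in Hdac7SA.Mef2d and in neither untreated Hras line. The 5 lay in introns and had scores in Hdac7SA.Mef2d from 1.45 to 11.5. With PD, Crebbp had 2 and 1 open distal loci, and with TSA 3 and 2. Ep300 had 4, 4 and 3 in the 3 untreated lines, 3 and 2 with PD and 3 and 3 with TSA. Kat2b, Kat5, Kat6a, Kat7 and Kat8 had between 1 and 8 open distal loci in each list.

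The bromodomain readers kept most of their distal loci. Brd2 had 5 open distal loci in each untreated list, 4 and 5 with PD and 5 and 4 with TSA. Brd3 had 4 in Hdac7SA.Mef2d, 4 and 2 in the untreated Hras lines, 5 and 4 with PD, and 6 and 4 with TSA, so that it gained rather than lost. Together 1 of 9 distal loci of the readers closed with PD in Hras.E1A (11.1%, 0.281 to 48.2%, beside 44.6% over all genes). In Hras.Myc it was 0 of 7, beside 46.1%, where 0 of 7 allows a share of up to 41.0% by the exact interval. No correction was made for the 12 roles looked at.

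The nuclear receptor coactivators Ncoa1, Ncoa2 and Ncoa3, which bring acetyltransferases to hormone receptors, are long genes with 13, 25 and 19 distal loci. With PD, 12 of 30 closed in Hras.E1A (40.0%, 22.7 to 59.4%) and 17 of 30 in Hras.Myc (56.7%, 37.4 to 74.5%). The shares over all genes, 44.6% and 46.1%, lay within these intervals. Ncoa2 went from 12 to 9 and from 12 to 7, Ncoa3 from 13 to 10 in both lines and Ncoa1 from 5 to 5 and from 5 to 2. Ncoa2 also had 10 distal loci open in Hdac7SA.Mef2d and in neither untreated Hras line, of 19 open in Hdac7SA.Mef2d. With TSA, Ncoa3 lost 6 and gained 4 loci in Hras.Myc, and Ncoa2 lost 1 and gained 3 in Hras.E1A.

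Among the corepressors, Ncor1, which holds Hdac3 in its complex, went from 4 to 0 open distal loci with PD in Hras.E1A, and also had 4 in untreated Hras.Myc, where PD closed 3 and opened 1. Its 4 loci had scores of 4.24, 11.3, 3.39 and 4.71 in untreated Hras.E1A and were all open with TSA in that line. Ncor1 was singled out after its values were seen, as was Kdm1a below. Rcor1, the CoREST scaffold, had 5 and 6 open distal loci in the untreated Hras lines, 4 and 2 with PD and 7 and 5 with TSA. Rest, the repressor of neuronal genes that recruits CoREST, had 4 and 4, with 3 and 3 under PD and 5 and 4 under TSA. Of the scaffolds, Sin3a had 2 open distal loci in all 6 Hras lists. Sin3b had 3 and 2 in the untreated Hras lines, 2 and 1 with PD and 3 and 2 with TSA.

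Kdm1a removes methyl groups from lysine 4 of histone H3 beside Rcor1 and Hdac1 in CoREST. Its promoter locus was open in all 7 lists, while its distal loci were open in 4 places in each untreated Hras line and in none of the lists with PD. The intronic locus printed above scored 14.2 in untreated Hras.E1A, 14.6 in untreated Hras.Myc and 6.33 in Hdac7SA.Mef2d, had no peak with PD in either line, and scored 12.6 and 13.3 with TSA. The start of the neighbouring gene Luzp1 was nearer to this locus than that of Kdm1a. The others scored 9.68, 5.02 and 1.83 in Hras.E1A and 12.6, 13.7 and 3.24 in Hras.Myc. With TSA the 4 loci stayed open in Hras.E1A, and 3 of them in Hras.Myc, where another locus opened. In the map of loci the distal marks of Kdm1a are missing from both PD rows, and those of Ncor1 from the PD row of Hras.E1A.

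**Figure D4:**
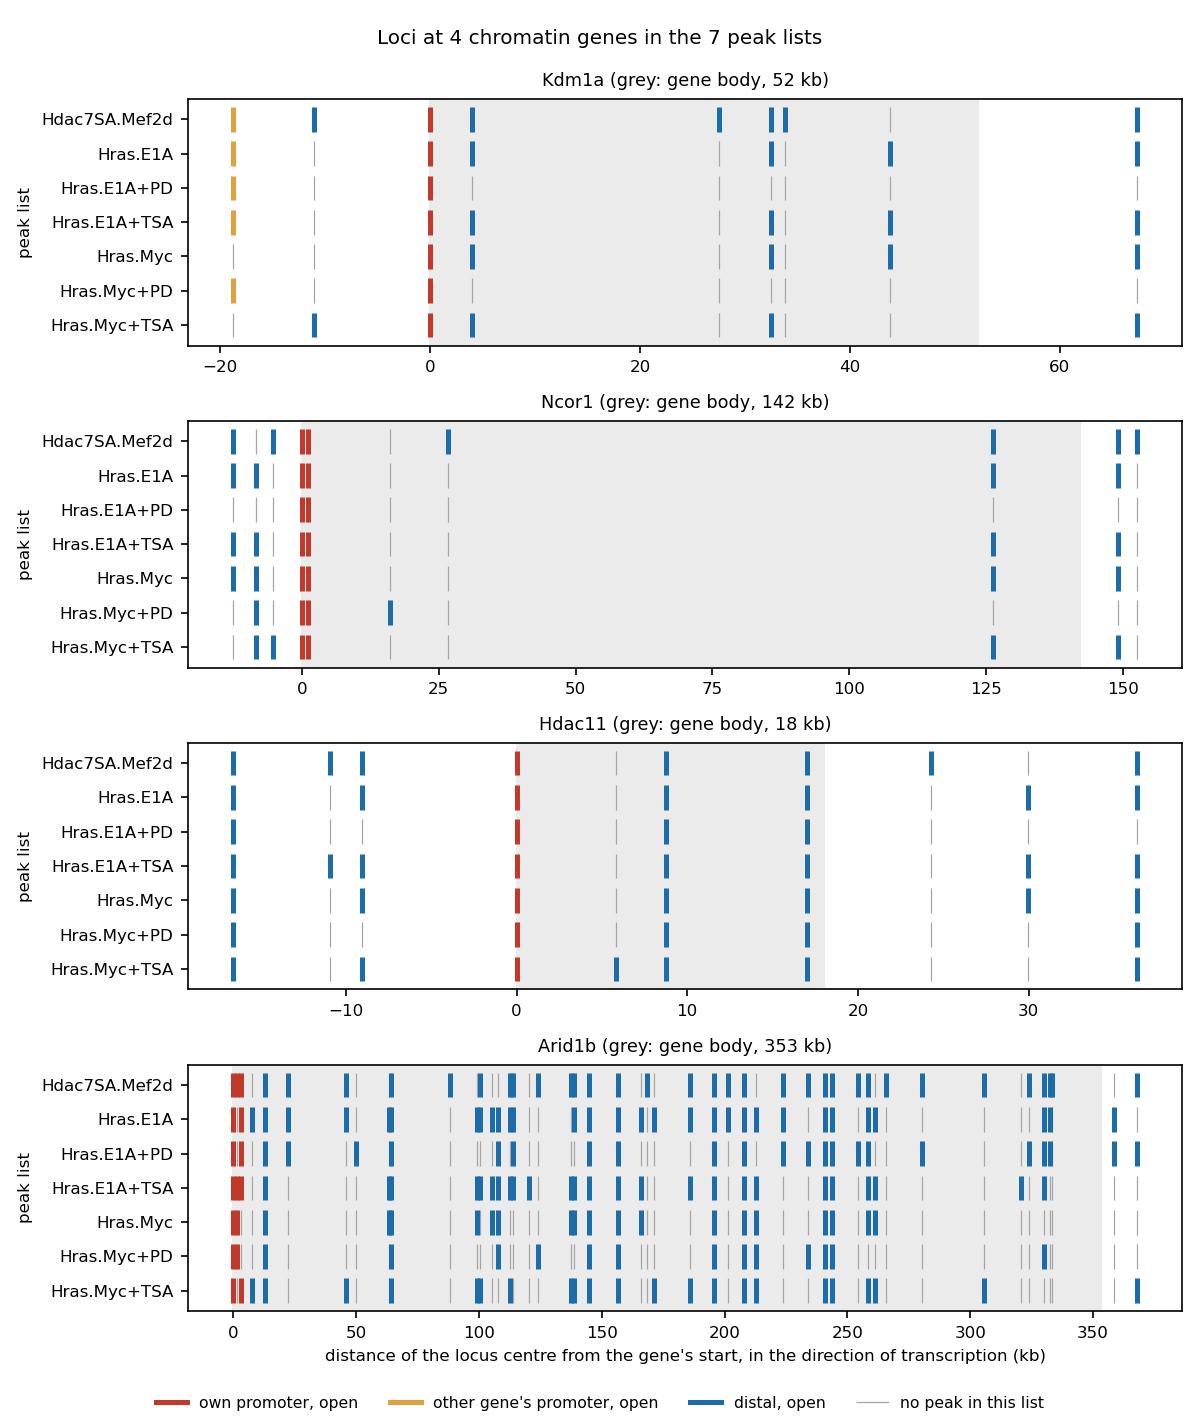
Each panel is 1 gene, with distance from its start along the direction of transcription in kb on the x axis and the 7 peak lists as rows. Thick marks are open loci (red at the gene's own promoter, orange at another gene's promoter, blue distal), thin grey marks are loci without a peak in that list, and shading is the gene body. Kdm1a kept its promoter mark and had 0 distal marks with PD, and Arid1b had 30 distal marks in Hras.E1A and 18 in Hras.Myc.

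The other histone demethylases kept some open distal loci with PD in both lines, though the number fell at Kdm2b in both lines and at Kdm6a in Hras.Myc. Kdm6b had 8 or 9 open distal loci with PD and untreated in the Hras lines, and 7 of its 11 were open in all 7 lists. Kdm2b, the demethylase that brings a Polycomb complex to CpG islands, had 8 and 7 open distal loci in the Hras lines, 6 and 5 with PD and 9 and 6 with TSA. Kdm6a had 2 in each untreated Hras line, 2 and 1 with PD and 3 and 2 with TSA. As a group, 1 of 23 distal loci of the demethylases closed with TSA in Hras.E1A (4.35%, 0.110 to 21.9%) and 5 of 21 in Hras.Myc (23.8%, 8.22 to 47.2%). Both intervals contained the shares over all genes, 17.9% and 18.8%.

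NuRD joins Hdac1 and Hdac2 to the Chd remodellers. PD closed 3 of 18 distal loci of its genes in Hras.E1A (16.7%, 3.58 to 41.4%, an interval that lies below the 44.6% over all genes) and 6 of 20 in Hras.Myc (30.0%, 11.9 to 54.3%, beside 46.1%). It was 1 of 12 roles, each looked at in 4 treatment comparisons with no correction for their number. Chd4, the main helicase of NuRD, had 7 and 8 open distal loci untreated and 6 and 5 with PD. Mbd3 had 2 and 3 untreated, and 3 and 3 with PD. Mta1, a subunit that binds the deacetylases, had 5 and 4 open distal loci untreated, 5 and 4 with PD, and 3 and 6 with TSA. Mta2 had 1 distal locus in all, with a peak in untreated Hras.Myc only.

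The BAF genes, whose complex slides nucleosomes, were dominated by Arid1b, which held 45 of the distal loci. PD closed 24 of 61 distal loci of BAF genes in Hras.E1A (39.3%, 27.1 to 52.7%) and 14 of 42 in Hras.Myc (33.3%, 19.6 to 49.5%). The shares over all genes, 44.6% and 46.1%, lay within these intervals. Arid1b had 30 open distal loci in untreated Hras.E1A but 18 in untreated Hras.Myc, beside 32 in Hdac7SA.Mef2d. In number of loci this was the largest difference between the untreated Hras lines among the members, at the member with the most loci. With PD it had 22 and 13, and with TSA 25 and 22. PD closed 14 and 8 of its loci in these lines. Smarcc1, a scaffold of BAF, went from 4 to 1 in Hras.E1A and from 3 to 2 in Hras.Myc with PD. Its printed locus was close to the lowest score in Hdac7SA.Mef2d, at 1.23, and reached 10.8 in Hras.E1A and 21.8 with TSA. The ATPases differed, with Smarca4 at 8 and 7 open distal loci untreated, 6 and 8 with PD, and Smarca2 at 3 and 2 untreated, 3 and 1 with PD. Arid1a had 7 and 5 untreated and 7 and 6 with PD. The subunits Smarcb1 and Smarcd3 had between 3 and 6 in each list.

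At the PRC2 genes, 5 of 14 distal loci closed with PD in each Hras line (35.7%, 12.8 to 64.9%, beside 44.6% and 46.1% over all genes). Ezh2 went from 4 to 1 and from 4 to 2, and had 2 distal loci open in both untreated Hras lines and closed in Hdac7SA.Mef2d. Suz12 had 3 or 4 in every list, Eed 1 or 2 and Ezh1 between 4 and 6. Of the histone methyltransferases, Dot1l, which methylates lysine 79 of histone H3, was the one at which TSA closed most, with 8 open distal loci in Hras.E1A and 4 with TSA, and 5 and 3 in Hras.Myc. TSA closed 5 and opened 1 of the loci of Dot1l in Hras.E1A, and the 5 had scores between 1.24 and 3.35, near the lowest score of 1.20 in the list. Over the methyltransferases TSA closed 6 of 13 distal loci in Hras.E1A (46.2%, 19.2 to 74.9%, whose lower end lies above the 17.9% over all genes), 5 of them at Dot1l. In Hras.Myc it closed 5 of 11 (45.5%, 16.7 to 76.6%, beside 18.8%). Loci of these genes also opened with TSA, 4 of 11 in Hras.E1A (36.4%, 10.9 to 69.2%, beside 15.9%) and 3 of 9 in Hras.Myc (33.3%, 7.49 to 70.1%, beside 22.9%). This role too was 1 of 12, each looked at in 4 treatment comparisons with no correction, and each TSA list rests on 1 library. Kmt2a had 4 and 5 untreated, 3 and 2 with PD and 5 and 4 with TSA, and Kmt2d had 1 or 2 in every list.

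Of the genes of DNA methylation, Tet2 had the largest number of distal loci open in Hdac7SA.Mef2d and in neither untreated Hras line. It had 7 open distal loci in Hdac7SA.Mef2d, but 1 and 2 in the untreated Hras lines. Of the 7, 6 were open in neither untreated Hras line, with scores from 1.38 to 12.5. With PD it had 1 and 4, and with TSA 4 and 4. The printed Tet3 locus was among the strongest of the distal loci, at scores of 17.8 in Hras.E1A, 18.7 in Hras.Myc, and 18.9 and 20.5 with TSA, but 4.48 in Hdac7SA.Mef2d, and Tet3 as a whole had between 4 and 9 open distal loci. Tet1 had 7 in Hdac7SA.Mef2d and 4 or 5 in each Hras list. Dnmt3a had 9, 12 and 9 in the untreated lines, 9 and 8 with PD and 14 and 11 with TSA. A distal locus 14032 bp upstream of Dnmt3a was open in all 7 lists with scores from 16.9 to 28.8. Dnmt1, which maintains methylation, had 5 in each untreated line, 3 and 4 with PD and 5 and 5 with TSA. Dnmt3b had 1 or 2 in every list.

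The untreated lines differed at distal loci and hardly at promoters. No promoter locus of the members was open in Hdac7SA.Mef2d and in neither untreated Hras line (0 of 74, which by the exact interval allows up to 4.86%), beside 6.39% over all genes and 5.49% at the other chromatin genes. Of the 79 promoter loci open in any untreated line, 68 were open in all 3 (86.1%, 76.5 to 92.8%, beside 81.7% over all genes). At distal loci, 108 of the 371 open in Hdac7SA.Mef2d were open in neither Hras line (29.1%, interval 24.5 to 34.0%), which was below the 43.0% over all genes. In the other direction, 41 of the 248 distal loci open in both Hras lines had no peak in Hdac7SA.Mef2d (16.5%, 12.1 to 21.8%, beside 20.0%). With lists of equal size these shares were 31.8% and 42.2%, beside 45.7% and 48.9% over all genes.

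Of the 440 distal loci open in any untreated line, 207 were open in all 3 (47.0%, 42.3 to 51.8%), beside 33.9% over all genes and 40.7% at the other chromatin genes. Of the 394 distal loci open in Hdac7SA.Mef2d at the 79 other chromatin genes, 132 were open in neither untreated Hras line (33.5%, 28.9 to 38.4%). A share below that of all genes was thus not peculiar to the members. At 31 members (54.4%, beside 41.0% of all genes and 53.2% of the other chromatin genes) more distal loci were open in Hdac7SA.Mef2d than in either Hras line, the list of Hdac7SA.Mef2d being the longest. This count of genes too was not adjusted for the members' larger number of distal loci. The largest numbers open in Hdac7SA.Mef2d and in neither untreated Hras line were at Arid1b (11), Ncoa2 (10), Kat6b (6), Tet2 (6) and Crebbp (5). In the other direction they were at Arid1b (7), Ncoa3 (4), Kat6b (3), Ncoa2 (3) and Ezh2 (2).

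The responses of the 79 other chromatin genes were set beside those of the members. With PD, 133 of 314 of their distal loci closed in Hras.E1A (42.4%, 36.8 to 48.0%), beside 36.9% at the members and 44.6% over all genes. In Hras.Myc it was 134 of 287 (46.7%, 40.8 to 52.6%), beside 42.0% and 46.1%. With TSA, 52 of 314 closed in Hras.E1A (16.6%, 12.6 to 21.1%), beside 15.0% and 17.9%, and 54 of 287 in Hras.Myc (18.8%, 14.5 to 23.8%), beside 20.4% and 18.8%. Each of these intervals overlapped that of the members and contained the share over all genes. The PD shares were nearer to those of all genes than to those of the members.

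The sequences of the distal loci were then compared by their change with PD. Either strand of the central 200 bp was searched for the letters TGANTCA, which occurred in 29.2% of all 147985 loci. They were in 24.8% of the members' distal loci, beside 30.8% of the distal loci of all genes. At promoter loci it was 4.94%, beside 6.53%. Among the distal loci that PD closed in Hras.E1A, 55 of 113 held the motif (48.7%, interval 39.2 to 58.3%), compared with 29 of 193 of those kept (15.0%, 10.3 to 20.9%). In Hras.Myc it was 51 of 115 closed (44.3%, 35.1 to 53.9%) and 32 of 159 kept (20.1%, 14.2 to 27.2%). Among loci open in both untreated Hras lines it was in 35 of 65 closed with PD in both (53.8%, 41.0 to 66.3%) and 18 of 132 kept in both (13.6%, 8.29 to 20.7%), so that the intervals did not overlap. Over all genes the last shares were 66.3% and 21.9%. By line they were 56.2% closed and 20.6% kept in Hras.E1A, and 52.7% and 28.2% in Hras.Myc, so that the order was that of all genes. With lists of equal size the members' shares were 58.2% closed (32 of 55, 44.1 to 71.3%) and 18.8% kept (22 of 117, 12.2 to 27.1%) in Hras.E1A. In Hras.Myc they were 48.2% closed (41 of 85, 37.3 to 59.3%) and 23.3% kept (28 of 120, 16.1 to 31.9%), and the closed and kept intervals again did not overlap. The loci opened with PD seldom held the motif, with 2 of 34 in Hras.E1A (5.88%, beside 7.63% over all genes) and 4 of 46 in Hras.Myc (8.70%, beside 10.1%).

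With TSA the order was the reverse. The motif was in 9 of 46 distal loci closed in Hras.E1A (19.6%, 9.36 to 33.9%) and 75 of 260 kept (28.8%, 23.4 to 34.8%), and in Hras.Myc in 6 of 56 closed (10.7%, 4.03 to 21.9%) and 77 of 218 kept (35.3%, 29.0 to 42.1%). In Hras.Myc these intervals did not overlap, whereas in Hras.E1A they did. Over all genes the order was the same, with 23.4% closed and 39.3% kept in Hras.E1A and 26.5% and 42.5% in Hras.Myc. The motif was also in 15 of 49 loci opened with TSA in Hras.E1A (30.6%, beside 39.0% over all genes) and in 9 of 49 in Hras.Myc (18.4%, beside 29.2%). It was in 17 of the 108 distal loci open in Hdac7SA.Mef2d and in neither untreated Hras line (15.7%, 9.45 to 24.0%, beside 22.8%).

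**Figure D5:**
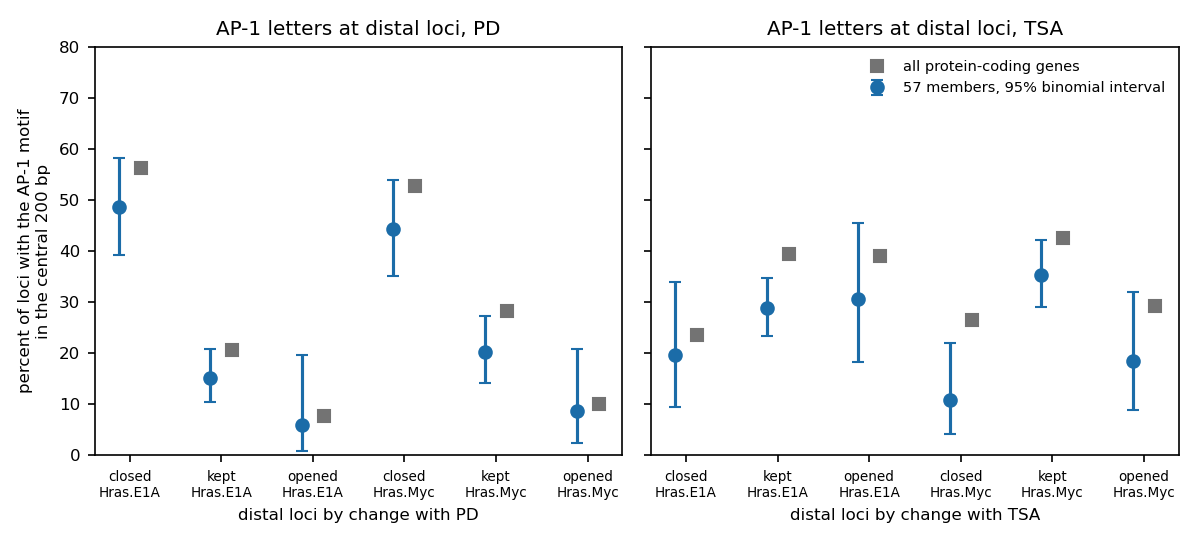
Percent of distal loci with TGANTCA on either strand in the central 200 bp, by change with PD (left) and TSA (right) in each Hras line. Circles with bars are the 57 members with exact 95% binomial intervals and squares are all protein-coding genes. With PD the members' closed loci stand at 48.7% and 44.3%, above the kept loci at 15.0% and 20.1%.

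Of the 6 other motifs searched on both strands in the same window, GGGCGG, bound by SP and KLF factors, was in 54 of 81 promoter loci (66.7%, interval 55.3 to 76.8%), beside 52.0% of the promoter loci of all genes and 10.3% of all loci. It was in 4 of the 113 that PD closed in Hras.E1A (3.54%, 0.973 to 8.82%) against 30 of 193 kept (15.5%, 10.7 to 21.4%), and in Hras.Myc in 5 of 115 closed (4.35%, 1.43 to 9.85%) and 26 of 159 kept (16.4%, 11.0 to 23.0%). Over all genes it was in 4.76% closed and 10.2% kept in Hras.E1A, and in 5.43% and 10.8% in Hras.Myc. The loci kept with PD were thus richer in these letters in both lines, at the members as over all genes. GGAATG, bound by TEAD factors, was in 16 of 34 loci opened with PD in Hras.E1A (47.1%, 29.8 to 64.9%, beside 27.1% over all genes and 18.9% of all loci) and in 12 of 46 opened in Hras.Myc (26.1%, 14.3 to 41.1%, beside 26.6%). CCGGAAGT, bound by ETS factors, was in 5 of 81 promoter loci (6.17%, 2.03 to 13.8%), beside 4.75% of the promoter loci of all genes. It was in 0 of 475 distal loci, beside 0.273% of the distal loci of all genes and 0.768% of all loci. The letters CACGTG, TGACGTCA and GATAAG were in 3.24%, 0.584% and 5.78% of all loci. They were in 4.00%, 0.211% and 5.05% of the members' distal loci, beside 3.05%, 0.387% and 5.94% of the distal loci of all genes. None of the 7 motifs contains another. Median GC content of the central 200 bp was 48.5% for loci closed with PD in Hras.E1A, 51.5% for those kept and 46.8% for those opened, and its part in these motif shares was not tested. A match of letters is not a binding site.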

How the data were processed

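ATAC-seq libraries were made by the study from 50000 cells each, 12 in all. Alignment was to mm10 by Bowtie2 2.4.5 and peak calling by MACS2 2.2.7.1, versions and build being those in the notes of the submitters. The authors deposited 1 peak list per group, pooling replicates by a step that the sources used here do not give. Column 5 of the deposited lists is a score, of which the lowest is 1.20 and the scale is not stated, so it was ranked only within a list. Every peak is 400 bp wide. No counts are given, so the depth and its precision are unknown and no count test could be run.

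Peaks of the 7 lists were merged on 1 bp of overlap with Python 3.11.15 and NumPy 2.4.6, and assigned to GENCODE M21 basic gene models on mm10 with 20000 bp either side. Promoter loci lay within 1000 bp of a TSS. Shares were compared with those over all 21938 protein-coding genes and over 79 other genes of the same pathways. Exact binomial intervals came from SciPy 1.17.1 and figures from Matplotlib 3.10.9. Motifs were searched as letters in the GRCm38.p6 RefSeq genome. The procedure was tested on simulated peak lists with known changes. Named genes were the 5 with most loci closed or opened in each comparison and those of the printed sequences; others were named after their values were seen. Members, the other pathway genes and the fibroblast, epithelial, endothelial, blood, neural and pluripotent marker lists were chosen with earlier results of these data known. Of 4 neural markers 1 or 2, and of 4 pluripotent markers 1, had an open promoter in each list. Of 4 endothelial markers 1 or 2, and of 4 blood markers 2, did. Alternatives changed the windows, merging, promoter distance, list length, low scores and motif window.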

Additional observations from a re-analysis of the deposited data

Results flagged for a closer look

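Counted as distal loci opened minus distal loci closed, 12 members (21.1%, beside 12.9% of all genes) had opposite signs in the Hras lines with TSA. For 2 of them (3.51%, beside 1.83% of all genes) the number was at least 2 loci in each line. At Arid1b the number was -5 in Hras.E1A and 4 in Hras.Myc. At Mta1 it was -2 in Hras.E1A and 2 in Hras.Myc. Of the 79 other chromatin genes, 10.1% had opposite signs with TSA, and 5.06% by at least 2 loci in each line. These counts were not adjusted for the members' larger number of distal loci, a median of 7 against 4 over all genes, with 45 at Arid1b. Each TSA list rests on 1 library and the difference between the lines was not tested. With PD, 4 members had opposite signs (7.02%, beside 6.38%) and 0 by at least 2 loci in each line (beside 0.971%).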

How the results depend on the processing

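Each list holds 1 pooled peak set per group, so leaving out each replicate was not run. No paired analysis was possible because the replicates of a group cannot be separated in the deposited lists. The depth of the libraries is unknown and the TSA lists rest on 1 library each. Other windows and stricter overlap left the 10 shares of the members' distal loci within their intervals. Other promoter distances and a tolerance of 500 bp, run for the 8 treatment shares, and a catalogue without the TSA lists, run for 6, did so too.

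Without the 25% of peaks with the lowest scores, the opened shares were 20.9% (PD) and 21.8% (TSA) in Hras.E1A and 33.3% and 26.3% in Hras.Myc, beside 25.7%, 20.7%, 36.7% and 28.0% over all genes. The share closed with TSA in Hras.E1A was 24.1%, beside 23.2%, and the share open in Hdac7SA.Mef2d and neither untreated Hras line 37.5%, beside 49.0%. With lists of equal size, the opened shares with PD were 44.5% in Hras.E1A and 41.5% in Hras.Myc, above the 39.2% and 40.3% over all genes. The TSA shares in Hras.E1A were 21.5% closed and 25.0% opened, beside 23.4% and 22.3%. The share of both Hras lines without a peak in Hdac7SA.Mef2d was 42.2%, beside 48.9%, and 26 members had a promoter locus open in all 7 lists. The share closed with PD stayed below that over all genes in 11 of 11 settings in each line. Stricter overlap and the catalogue without the TSA lists, which are among these settings, left the members' share unchanged. In Hras.Myc the window of 5000 bp gave 47.1%, beside 47.2%, and the main interval (36.1 to 48.1%) contained the 46.1% over all genes.

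With AP-1 letters in the central 100 bp, the shares closed and kept with PD were 34.5% and 6.74% in Hras.E1A and 27.8% and 10.7% in Hras.Myc. In the whole locus the kept share was 21.2% in Hras.E1A and the closed share 54.8% in Hras.Myc. The alternatives without the TSA lists, those for the promoter count and those of list length and low scores for the motif were chosen after seeing the data. The causes were not tested.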
